A study of Mus musculus with 8 samples.

Results

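Of the 23356 genes in the deposited table of mouse BMDCs, 10 that encode secreted growth factors were selected by gene symbol: the EGF receptor ligands Hbegf, Areg and Ereg, the vascular growth factors Vegfa and Vegfb, the platelet-derived growth factor chains Pdgfa and Pdgfb, the activin subunit Inhba, Tgfb1 and Igf1. BMDCs are dendritic cells grown from bone marrow, here for 6 days with GM-CSF at 10 ng/ml and IL-4 at 10 ng/ml. The cells came from WT mice or from mice that lack Arhgef2, the gene of the guanine nucleotide exchange factor GEF-H1 (GEF-H1-/-), both on a C57BL/6 background. Each genotype was left without drug (untreated) or received ansamitocin-P3 (AP3), a compound that binds tubulin and destabilizes microtubules, at 100 nM for 5 h. There were 8 RNA-seq libraries, 2 in each of 4 groups. The deposited table holds 1 pooled FPKM (a fragment level normalized to transcript length and sequencing depth) for each gene and group with a 95% interval from Cuffdiff, so no difference below has a replicate check, an n or a p-value.

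Growth factors of these families are made as precursors that are secreted or anchored in the membrane, and several are released or activated by cutting. HB-EGF, amphiregulin and epiregulin are shed from the cell surface and activate receptors of the ErbB family, whereas VEGF, PDGF and IGF-1 act on other receptor tyrosine kinases. Activin and TGF-beta signal through serine/threonine kinase receptors and SMAD proteins, and dendritic cells are a known source of TGF-beta and activin A that act on T cells and on neighbouring tissue.

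Arhgef2 itself was listed at 42.3 FPKM (95% interval 34.5 to 50.0) in untreated WT and 45.9 (36.9 to 54.9) in AP3-treated WT cells, against 4.59 (3.54 to 5.63) in untreated and 4.16 (3.22 to 5.11) in AP3-treated GEF-H1-/- cells. The intervals of the genotypes lay apart with and without the drug, in the direction of the labels. All 10 of the 10 dendritic cell markers examined passed 1 FPKM in at least 1 group, led by Cd74, the invariant chain of MHC class II, at 3676 FPKM in untreated WT cells, and Zbtb46, a transcription factor of conventional dendritic cells, was at 14.8. Markers of other cells were in the same RNA. The 8 neutrophil markers found (of 9 listed) summed to 32544 FPKM in untreated WT cells against 5741 for the dendritic cell markers. Most of the neutrophil sum came from S100a8 (19401 FPKM) and S100a9 (10678), and the next gene, Ngp, was at 1707. The value of S100a8 lay above its own deposited interval (9356 to 16474), so the 2 sums do not compare amounts of cells. The dendritic cell markers summed to 7387 FPKM in AP3-treated WT, 4876 in untreated GEF-H1-/- and 5329 in AP3-treated GEF-H1-/- cells. Ccr7, a chemokine receptor gene on this list, was at 258 FPKM in untreated and 602 in AP3-treated WT cells (1.22 on the log2 scale of FPKM + 1 defined below, and 0.98 with the groups rescaled to a common sum) and at 234 and 405 in GEF-H1-/- cells (0.79), with intervals of treated and untreated cells apart in both genotypes. Ciita, Cd209a and Flt3 of the same list were lower in AP3-treated WT cells with intervals apart (-0.98, -0.64 and -0.58) but not called. The median change of the 10 in WT cells was 0.04 as deposited. With the groups rescaled to a common sum Ciita was at -1.20 and called. In such bulk RNA, fewer cells of a type and less RNA per cell cannot be told apart.

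Changes are given as the log2 ratio of FPKM + 1, which understates the change of low genes, and a gene was called when this value was over 1 or under -1. The 8 ligands other than Areg and Ereg had at least 3.32 FPKM in every group, so that none entered through the group where it was high. With AP3, 4 of the 10 ligands rose in WT cells (Hbegf, Vegfa, Pdgfb and Inhba), where 3.66% of the 11397 genes tested rose and 1.28% fell. In GEF-H1-/- cells 3 of the 10 rose (Hbegf, Pdgfb and Inhba), beside 0.807% of all genes tested that rose and 0.272% that fell. The ligands were chosen with earlier results of these data known, so the shares beside them are a description and not a test. No ligand was called lower with the drug in either genotype. The median change of the 8 ligands tested was 1.25 in WT cells and 0.51 in GEF-H1-/- cells, and that of all genes tested was 0.00 and -0.01. The deposited intervals of treated and untreated cells lay apart for 4 of the 8 ligands tested in each genotype, Vegfa being the additional gene in GEF-H1-/- cells, against 16.8% of all genes in WT cells and 3.70% in GEF-H1-/- cells.

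**Figure D1:**
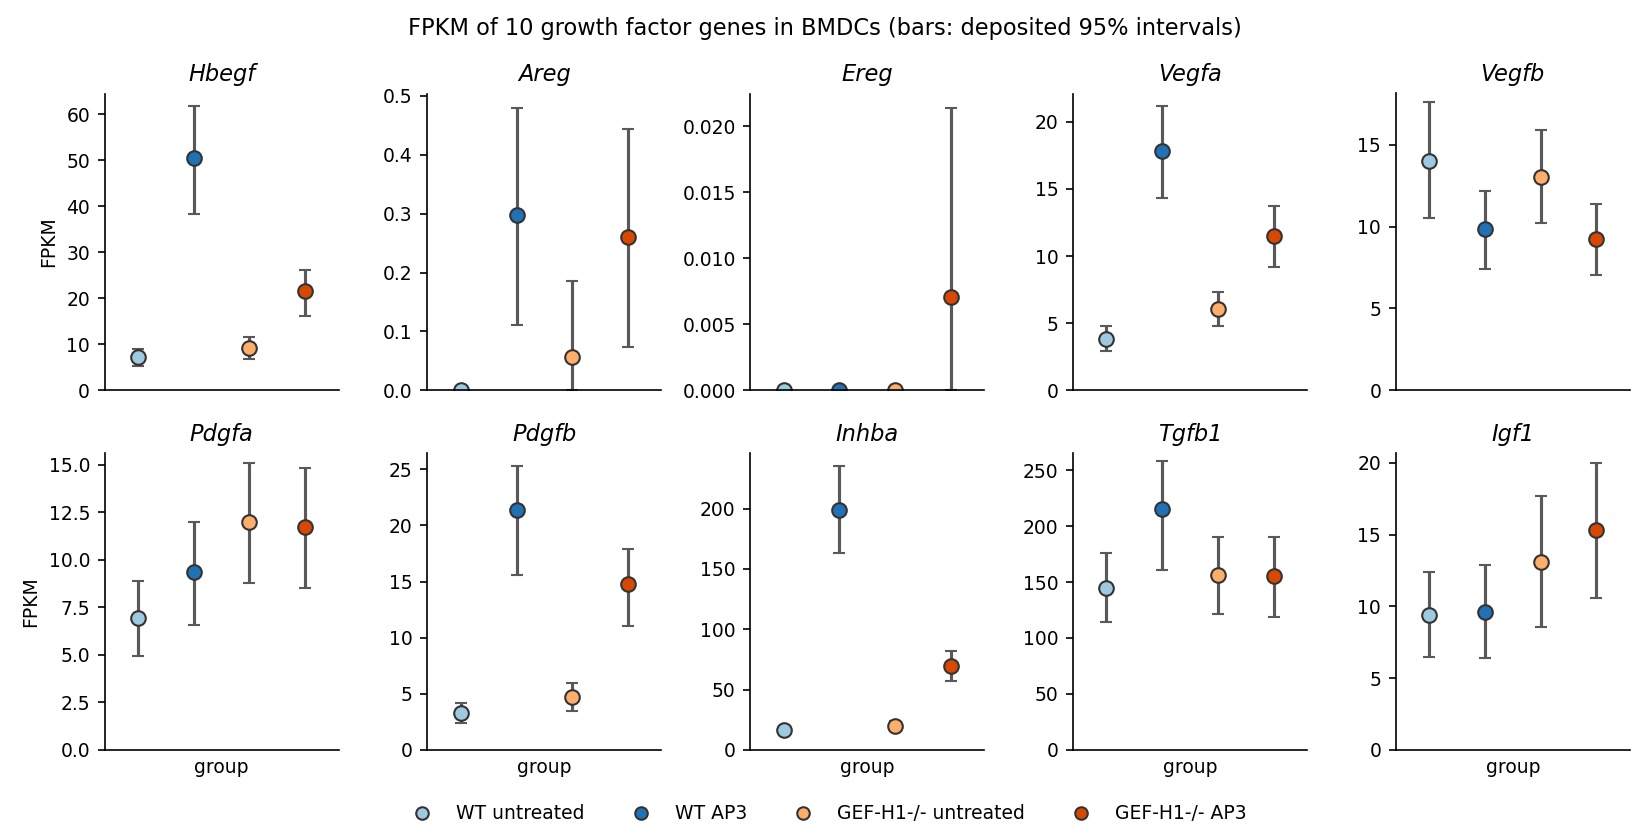
FPKM of the 10 growth factor genes in the 4 groups, with 1 panel per gene, a separate linear axis from 0 in each panel and bars for the deposited 95% intervals. In Hbegf, Vegfa, Pdgfb and Inhba both treated groups lie above both untreated groups, and Areg and Ereg stay below 0.5 FPKM in all groups.

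Among the EGF receptor ligands, only Hbegf was above 1 FPKM. Hbegf, on chromosome 18, encodes a membrane-anchored growth factor that binds EGFR and ErbB4. It was listed at 7.28 FPKM (95% interval 5.37 to 9.07) in untreated WT, 50.6 (38.3 to 61.7) in AP3-treated WT, 9.13 (6.75 to 11.5) in untreated GEF-H1-/- and 21.5 (16.2 to 26.2) in AP3-treated GEF-H1-/- cells. The intervals of the untreated groups overlapped, those of the treated groups did not, and AP3-treated GEF-H1-/- cells lay between the untreated groups and AP3-treated WT cells. These levels are a 6.95-fold ratio of treated to untreated in WT cells and a 2.35-fold ratio in GEF-H1-/- cells. On the log2 scale the change was 2.64 (interval from the deposited intervals 2.18 to 3.10) in WT cells and 1.15 (0.68 to 1.62) in GEF-H1-/- cells. The change in WT exceeded that in GEF-H1-/- cells by 1.49 (0.84 to 2.15), so the interval of the difference did not include 0. With a pseudocount of 5 FPKM the change in GEF-H1-/- cells was 0.91 and no longer called.

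Areg (chr5:91139615-91148432, GRCm38) and Ereg (chr5:91074617-91093649) encode ligands of the same receptor and lie on the same chromosome. Areg was listed at 0 in untreated WT, 0.298 FPKM (95% interval 0.111 to 0.48) in AP3-treated WT, 0.057 (0 to 0.185) in untreated GEF-H1-/- and 0.261 (0.0739 to 0.443) in AP3-treated GEF-H1-/- cells. In untreated WT cells its interval is deposited as 0 to 0, so whether intervals lie apart is not read for this gene. Ereg was listed at 0 in 3 groups and at 0.00704 FPKM (0 to 0.0214) in AP3-treated GEF-H1-/- cells. Both stayed under the filter of 1 FPKM, so neither was called and no fold is given against a group at 0.

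Of the 8 other EGF family ligands, 2 passed the filter and 1 of these was called in WT cells. Nrg1, a ligand of ErbB3 and ErbB4, rose from 4.86 to 11.7 FPKM with AP3 in WT cells (log2 change 1.11) and was at 3.09 and 3.52 FPKM in untreated and AP3-treated GEF-H1-/- cells, so that the treated genotypes differed by -1.49. Of the 13 genes of ligand shedding and receptor feedback, 9 were tested, and 3 rose in WT cells and 0 in GEF-H1-/- cells. Errfi1, a feedback inhibitor of EGFR, went from 4.43 to 24.9 FPKM in WT cells (2.26) and from 6.11 to 9.37 in GEF-H1-/- cells (0.54). Timp3, an inhibitor of metalloproteinases that include ADAM17, went from 1.30 to 6.74 FPKM in WT cells (1.75) and from 1.78 to 2.83 in GEF-H1-/- cells (0.46). Between the treated genotypes Errfi1 differed by -1.32 and Timp3 by -1.01.

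Rhbdf2, which encodes the ADAM17 partner iRhom2, went from 21.4 to 47.0 FPKM in WT cells (1.10) and from 23.5 to 30.9 in GEF-H1-/- cells (0.38). The proteases themselves were not called: Adam10, the gene of this list with the highest level in untreated WT cells, was at 64.1 FPKM in untreated and 52.2 in AP3-treated WT cells. Of the 4 ErbB receptors only Erbb3 passed the filter, at 0.905 FPKM in untreated and 1.17 in AP3-treated WT cells, and Egfr was at 0.0546 and 0.265 FPKM. Erbb4 was listed at 0 in all 4 groups, so the 2 receptors of HB-EGF were below 1 FPKM in the RNA in which Hbegf was measured.

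Vegfa (chr17:46016993-46032377), which encodes the main growth factor of blood vessels, was listed at 3.86 FPKM (95% interval 2.90 to 4.83) in untreated WT, 17.8 (14.3 to 21.2) in AP3-treated WT, 6.05 (4.81 to 7.29) in untreated GEF-H1-/- and 11.5 (9.22 to 13.7) in AP3-treated GEF-H1-/- cells. Both treated groups were above both untreated groups, and AP3-treated WT was above AP3-treated GEF-H1-/- cells without overlap. The log2 change was 1.95 (1.56 to 2.34) in WT cells and 0.82 (0.46 to 1.19) in GEF-H1-/- cells, and the difference of these changes was 1.13 (0.59 to 1.66). This difference was 0.94 when the groups were rescaled to a common sum of FPKM and 0.79 with a pseudocount of 5 FPKM, in both cases under the threshold.

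Vegfb (chr19:6982472-6987651), the gene of a ligand of VEGF receptor 1, stood at 14.0 FPKM (10.5 to 17.6) in untreated WT, 9.86 (7.44 to 12.2) in AP3-treated WT, 13.0 (10.2 to 15.9) in untreated GEF-H1-/- and 9.22 (7.02 to 11.4) in AP3-treated GEF-H1-/- cells. All 4 intervals overlapped. The log2 changes with AP3 were -0.47 (-0.94 to 0.00) in WT cells and -0.46 (-0.88 to -0.03) in GEF-H1-/- cells, and neither was called. In untreated WT cells Vegfb was above Vegfa without overlap of their intervals, and in AP3-treated WT cells Vegfa was above Vegfb, again without overlap.

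The PDGF chains form the homodimers and heterodimers of platelet-derived growth factor, and of their genes Pdgfb was called and Pdgfa was not. Pdgfb (chr15:79995876-80014808) was listed at 3.32 FPKM (2.42 to 4.19) in untreated WT, 21.4 (15.6 to 25.3) in AP3-treated WT, 4.70 (3.43 to 5.96) in untreated GEF-H1-/- and 14.8 (11 to 17.9) in AP3-treated GEF-H1-/- cells. Treated cells were above untreated cells in both genotypes, while the intervals of the genotypes overlapped with and without the drug. The log2 change was 2.38 (1.95 to 2.80) in WT cells and 1.47 (1.02 to 1.92) in GEF-H1-/- cells, and the difference of the changes, 0.91 (0.28 to 1.53), was not called, but reached 1.02 and was called with a pseudocount of 0.1 FPKM. Pdgfa (chr5:138976972-138994953) was at 6.92 FPKM (4.92 to 8.88) in untreated WT and 9.35 (6.57 to 12.0) in AP3-treated WT cells, and at 12.0 (8.79 to 15.1) and 11.7 (8.49 to 14.8) in untreated and AP3-treated GEF-H1-/- cells. The 4 intervals overlapped, and the changes with the drug were 0.38 in WT cells and -0.03 in GEF-H1-/- cells.

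Of the 5 other VEGF and PDGF ligands 2 were tested and 0 called; Vegfc had the highest level in untreated WT cells among them and stayed under the filter. Of the 7 receptors 3 were tested, 0 rose and 1 fell in WT cells. Nrp1, a co-receptor of VEGF, fell from 9.80 to 4.28 FPKM in WT cells (-1.03) and was at 7.95 and 7.73 FPKM in GEF-H1-/- cells. Nrp2 had the highest level of the list in untreated WT cells, 63.6 FPKM. Kdr, the main signalling receptor for VEGF-A, and the PDGF receptor genes Pdgfra and Pdgfrb were at 0.0116, 0.0187 and 0.309 FPKM in untreated WT cells. Flt1, the gene of VEGF receptor 1, was at 28.3 FPKM in untreated and 16.7 in AP3-treated WT cells, with intervals apart (-0.73, not called), and at 24.5 and 24.4 in GEF-H1-/- cells.

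Inhba (chr13:16014475-16027211) encodes the subunit of activin A, and had the highest log2 change of the 8 ligands tested in both genotypes. It was listed at 16.2 FPKM (13.0 to 19.4) in untreated WT, 199 (163 to 235) in AP3-treated WT, 19.8 (15.9 to 23.7) in untreated GEF-H1-/- and 69.6 (57.0 to 82.3) in AP3-treated GEF-H1-/- cells. The untreated groups overlapped, and the treated groups lay apart from them and from each other. Treated WT cells had 12.3-fold the untreated level and AP3-treated GEF-H1-/- cells 3.52-fold. On the log2 scale the changes were 3.54 (3.17 to 3.91) and 1.76 (1.39 to 2.14), with a difference of 1.78 (1.25 to 2.30).

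Tgfb1 (chr7:25687002-25704996), the gene of TGF-beta 1, had the highest level of the 10 ligands in every group. It stood at 145 FPKM (114 to 176) in untreated WT, 215 (161 to 258) in AP3-treated WT, 156 (121 to 190.4) in untreated GEF-H1-/- and 155 (119 to 190.1) in AP3-treated GEF-H1-/- cells. All 4 intervals overlapped, and the log2 changes of 0.56 in WT cells and -0.01 in GEF-H1-/- cells were not called. Inhba was at 11.2% of the Tgfb1 level in untreated WT and 92.9% in AP3-treated WT cells, where their intervals overlapped, and at 12.7% and 45.0% in untreated and AP3-treated GEF-H1-/- cells.

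Around these ligands, 1 of the 2 other TGF-beta superfamily ligands tested, of 14 on the list, rose in each genotype. Gdf15, a stress-induced member of the superfamily, went from 1.18 to 19.4 FPKM in WT cells (3.22) and from 1.48 to 14.0 in GEF-H1-/- cells (2.60). Among genes of activation and binding, 5 of 14 were tested, and 2 rose in WT cells and 0 in GEF-H1-/- cells. Lrrc32, which encodes the TGF-beta docking protein GARP, went from 14.4 to 43.6 FPKM in WT cells (1.54) and from 14.3 to 23.8 in GEF-H1-/- cells (0.70), with intervals apart in both genotypes. Furin, a convertase that cuts the TGF-beta precursor, went from 34.2 to 72.5 FPKM in WT cells (1.06). Furin was also at 53.5 and 74.8 FPKM in untreated and AP3-treated GEF-H1-/- cells, a change of 0.48.

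Of the 14 receptors of this superfamily 10 were tested and 1 rose in WT cells. Acvrl1, the type I receptor ALK1, went from 7.37 to 20.5 FPKM in WT cells (1.36) and from 12.2 to 14.1 in GEF-H1-/- cells (0.20), and Tgfbr1 had the highest level in untreated WT cells, 20.2 FPKM. Of 13 SMAD and repressor genes 11 were tested. Tgif1, a SMAD corepressor, was the gene called among them, going from 12.8 to 33.0 FPKM in WT cells (1.30) and from 14.7 to 17.9 in GEF-H1-/- cells (0.27), while Ski, another corepressor, had the highest level at 42.9 FPKM in untreated WT cells.

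Igf1 (chr10:87859056-87937047) encodes insulin-like growth factor 1, a product of macrophages among other cells. It was at 9.42 FPKM (6.45 to 12.4) in untreated WT, 9.64 (6.39 to 12.9) in AP3-treated WT, 13.1 (8.53 to 17.7) in untreated GEF-H1-/- and 15.3 (10.6 to 20.0) in AP3-treated GEF-H1-/- cells. The 4 intervals overlapped, and the changes with AP3 were 0.03 in WT cells and 0.21 in GEF-H1-/- cells; with the groups rescaled to a common sum the value in WT was -0.18. Of the 15 other genes of the IGF system 7 were tested and 0 were called with the drug in either genotype.

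**Figure D2:**
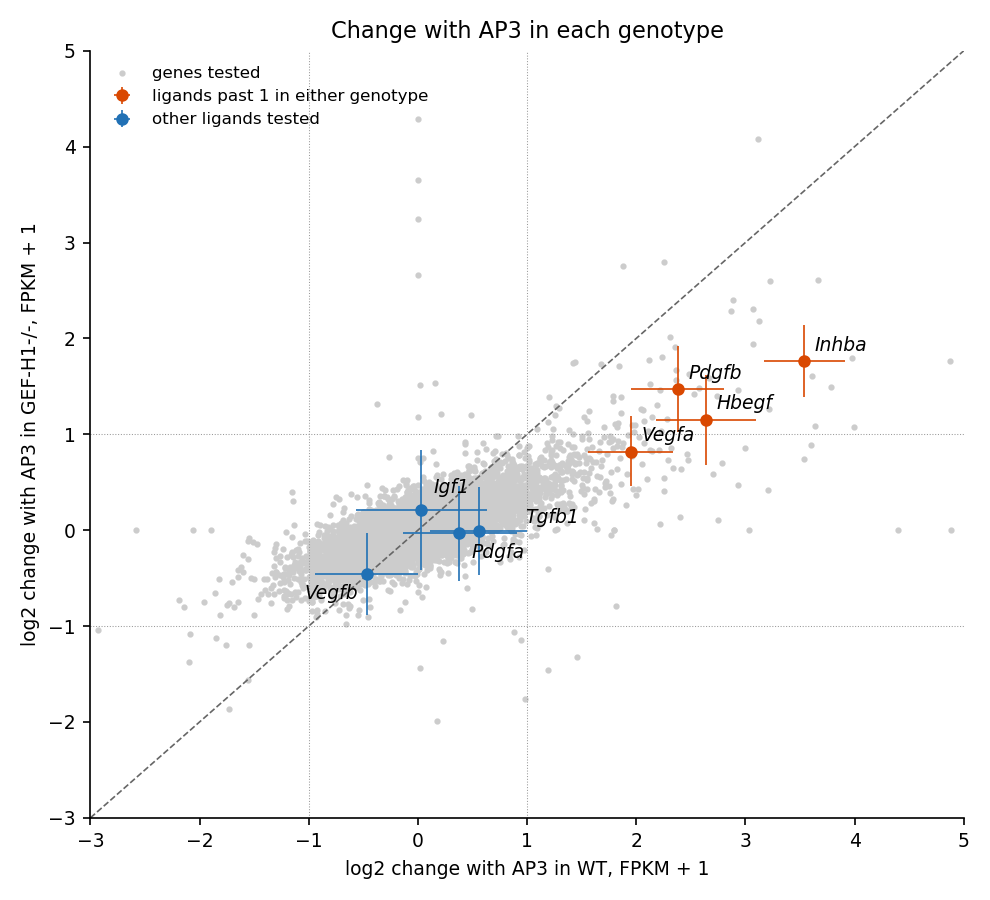
Log2 change of FPKM + 1 with AP3 in WT cells (horizontal) and in GEF-H1-/- cells (vertical) for the genes tested (grey) and the 8 ligands tested (coloured, with bars for the 95% intervals derived from the deposited ones); the dashed line marks equal changes, dotted lines mark 1 and -1, and 39 genes lie outside the plotted range. Inhba, Hbegf, Pdgfb and Vegfa lie below the dashed line on the side of larger changes in WT, and Vegfb lies on it.

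The summed FPKM of the 10 ligands was 207 in untreated WT, 533 in AP3-treated WT, 234 in untreated GEF-H1-/- and 309 in AP3-treated GEF-H1-/- cells, and without Tgfb1 it was 61.1, 318, 77.9 and 154. Tgfb1 made up 70.4% of the sum in untreated WT and 40.3% in AP3-treated WT cells, and Inhba 7.85% and 37.4%. FPKM is a level per transcript length, so the order of genes within a group can be read from it. In untreated WT cells the order was Tgfb1, Inhba, Vegfb, Igf1, Hbegf, Pdgfa, Vegfa, Pdgfb, Areg and Ereg, the latter both at 0. From Tgfb1 to Pdgfb the intervals of neighbours in this order overlapped except between Tgfb1 and Inhba and between Pdgfa and Vegfa. In untreated GEF-H1-/- cells neighbours from Tgfb1 to Pdgfb overlapped except between Tgfb1 and Inhba. Pairs with Areg or Ereg are not read. In AP3-treated WT cells Hbegf, Pdgfb and Vegfa followed Tgfb1 and Inhba, and Hbegf lay apart from its neighbours on both sides. In AP3-treated GEF-H1-/- cells Hbegf was again at rank 3, but the intervals of neighbours from Hbegf down to Vegfb overlapped.

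**Figure D3:**
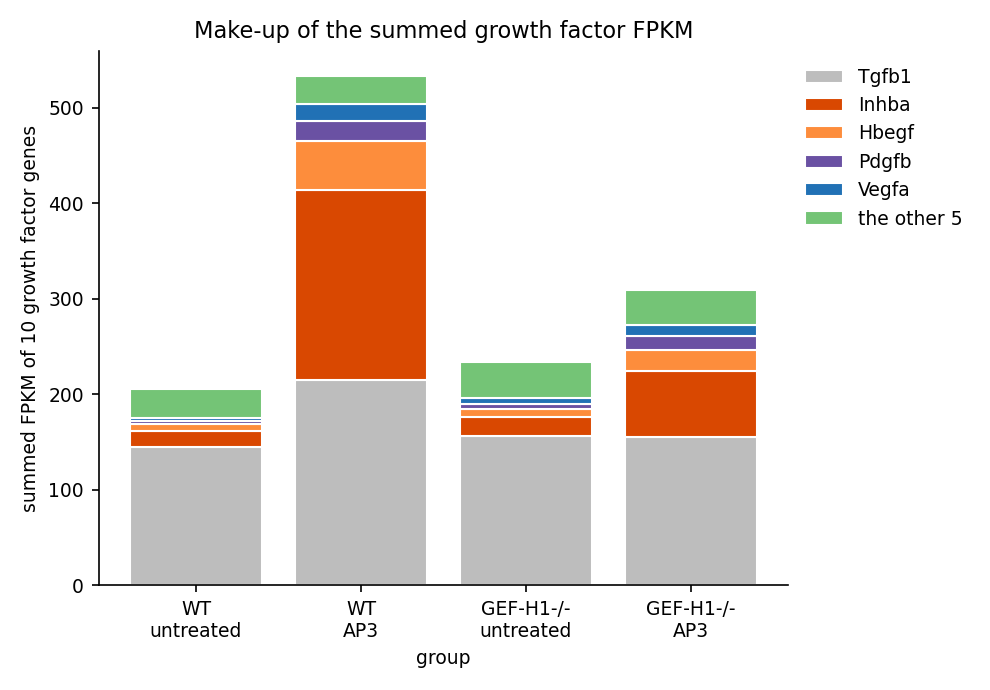
Summed FPKM of the 10 growth factor genes in each group, stacked by gene from 0, with Areg, Ereg, Igf1, Pdgfa and Vegfb combined; no error is drawn. The sum is highest in AP3-treated WT cells (533 FPKM), where Inhba takes 37.4% of it.

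Between the treated genotypes, 2 of the 10 ligands were lower in GEF-H1-/- cells, Inhba (-1.50, interval -1.87 to -1.14) and Hbegf (-1.20, -1.66 to -0.74), where 2.06% of all genes tested were lower and 2.0% higher. The deposited intervals lay apart for 3 of the 8 ligands tested, with Vegfa (-0.59) as the additional gene, against 13.7% of all genes. Igf1 was higher in treated GEF-H1-/- cells by 0.62 (0.01 to 1.22), not called, with deposited intervals that overlapped. Pdgfb (-0.51, -0.95 to -0.06) and Tgfb1 (-0.47, -0.93 to -0.01) were lower, also not called and with deposited intervals that overlapped. Rescaled to a common sum, Igf1 was at 0.84, Vegfa at -0.36, Pdgfb at -0.27, Tgfb1 at -0.22, Hbegf at -0.96 and Inhba at -1.26. This leaves 1 ligand called. In the difference between the genotypes in the change with AP3, 3 of the 10 were called (Hbegf, Vegfa and Inhba), each with the larger change in WT, beside 1.36% of all genes tested with a value over 1 and 0.535% under -1. With the interval also without 0 these shares were 1.25% and 0.483%, and the 3 ligands were the same. Part of each difference lay in the untreated groups, where GEF-H1-/- cells were above WT cells. The values there were 0.54 (0.15 to 0.92) for Vegfa, 0.29 (-0.18 to 0.76) for Hbegf and 0.27 (-0.11 to 0.65) for Inhba, none called.

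The columns did not share a common total, and rescaling them to the same sum without small RNA genes moved the median change of all genes in WT cells by -0.20, from 0.00 to -0.20. After that rescaling the 4 ligands called in WT cells had changes of 3.30 (Inhba), 2.41 (Hbegf), 2.15 (Pdgfb) and 1.72 (Vegfa). The share of higher genes among all genes called went from 74.1% to 43.3% for AP3 in WT cells, from 49.2% to 75.7% between the treated genotypes and from 71.8% to 50.5% in the difference of the changes.

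Treated GEF-H1-/- cells also had a lower sum of neutrophil markers. All 8 found were tested and 4 were lower than in AP3-treated WT cells (S100a8, Camp, Ltf and Ngp) while Mpo was higher; rescaled to a common sum, S100a8 was at -0.80 and no longer called and Elane, at 1.16, was newly called higher. The sum of the 8 was 32544 FPKM in untreated WT, 38453 in AP3-treated WT, 21963 in untreated GEF-H1-/- and 22376 in AP3-treated GEF-H1-/- cells, with S100a8 as the most abundant gene and none at 0. Without the drug 3 of these markers were lower (Camp, Ltf and Ngp) and 2 higher (Elane and Mpo) in GEF-H1-/- cells, where Hbegf (0.29) and Inhba (0.27) were not called. The interval of Elane, -2.76 to 4.99, included 0, and the value of S100a8 lay above its own deposited interval in all 4 groups. The part of the neutrophil markers in the difference between treated genotypes was not tested.

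Without AP3, 0 of the 10 ligands were called between the genotypes, where 1.26% of all genes tested were higher and 0.614% lower in GEF-H1-/- cells, and the deposited intervals overlapped for all 8 ligands tested, against 4.74% of all genes with intervals apart. Pdgfa had the highest value, 0.72 (0.22 to 1.22), followed by Vegfa at 0.54 (0.15 to 0.92) and Igf1 at 0.44 (-0.18 to 1.07). The median over the 8 ligands tested was 0.34 and that over all genes -0.01. In the IGF system 2 of the 7 genes tested were higher in untreated GEF-H1-/- cells. Igfbp7 was at 0.882 FPKM in untreated WT and 3.71 in untreated GEF-H1-/- cells (1.32, interval -0.22 to 2.86), and Igfbp5 at 0.534 and 2.28 (1.10, 0.83 to 1.36); both passed the filter in GEF-H1-/- cells but were under 1 FPKM in untreated WT cells. Igfbp4, the binding protein gene with the highest level in untreated WT cells (8.02 FPKM), and Igf2r, the clearance receptor for IGF-2, were called between the treated genotypes, by 1.19 and 1.06.

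Beside Igfbp5 and Igfbp7, and the values of Pdgfa and Igf1 that were not called, some sets of markers of other cells had higher sums in untreated GEF-H1-/- cells. Of the 6 platelet and megakaryocyte markers 5 were tested and 4 (Pf4, Ppbp, Itga2b and Gp9) were higher in untreated GEF-H1-/- cells; the sum of the 6 was 54.8 FPKM in untreated WT, 91.2 in AP3-treated WT, 148 in untreated GEF-H1-/- and 161 in AP3-treated GEF-H1-/- cells, with Pf4 as the most abundant in untreated WT cells and none at 0. Of the 11 basophil and mast cell markers 9 were tested and 2 (Fcer1a and Prss34) were higher, by 2.25 and 1.05; the sums were 213, 239, 409 and 393 FPKM in the same order, led by Prss34, and Mcpt4 was listed at 0 in both treated groups and Tpsb2 in AP3-treated WT cells. Of 8 macrophage markers 8 were tested and 0 were called without the drug, with sums of 792, 692, 1270 and 1169 FPKM led by Lyz2.

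Between the treated genotypes, where Inhba and Hbegf were lower in GEF-H1-/- cells, Fcer1a (2.57), Ms4a2 (1.43) and Pf4 (1.29) of these 3 lists were called higher. Hdc of the basophil and mast cell list was lower there, at -0.96 with intervals apart, and was not called. All 8 macrophage markers had values above 0 in this comparison, with a median of 0.53 and 0 called. Rescaled to a common sum, Mertk, Mrc1, Lyz2, Prss34, Cpa3, Itga2b and Gp9 were called higher as well.

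Fibroblast and stroma markers were near 0 in WT cells. The 5 genes summed to 0.317 FPKM in untreated WT, 0.0964 in AP3-treated WT, 3.67 in untreated GEF-H1-/- and 3.14 in AP3-treated GEF-H1-/- cells; Col1a2 was at 0.0895 FPKM in untreated WT and 1.96 in untreated GEF-H1-/- cells, and Lum was listed at 0 in both WT groups. In the same order of groups the T and NK cell markers summed to 19.6, 21.6, 13.5 and 13.7 FPKM, the B cell markers to 16.6, 10.2, 9.38 and 6.56, and the erythroid markers to 0.377, 0.595, 0.93 and 1.03. The part of any of these cells in the genotype differences was not tested.

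**Figure D4:**
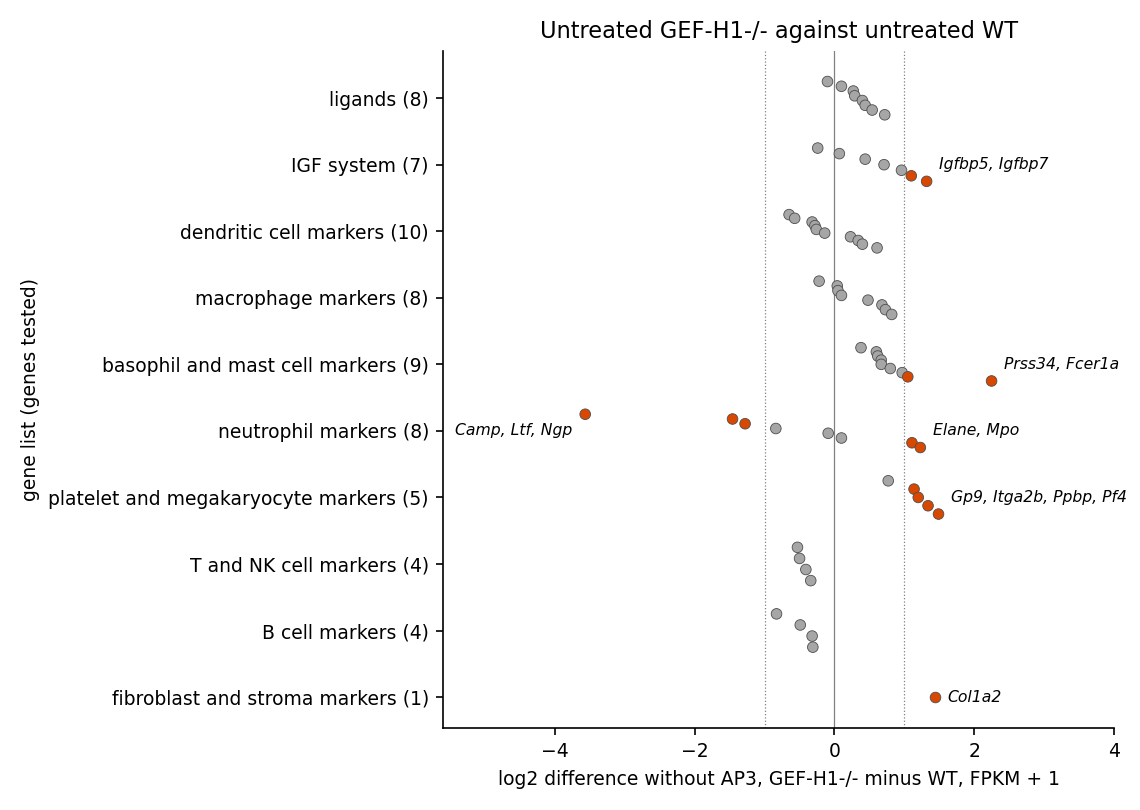
Log2 difference of FPKM + 1 between untreated GEF-H1-/- and untreated WT cells for each tested gene of the ligands, the IGF system and the marker lists, with 1 point per gene, dotted lines at 1 and -1 and genes past them in orange and named in order of value. None of the 8 ligands passes a line, while 4 platelet and megakaryocyte markers lie to the right of it and Camp, Ltf and Ngp to the left.

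Over all 12 lists of pathway genes, 72 of the 144 genes found were tested, 59 of them with at least 1 FPKM in all groups. In WT cells 12 (16.7%) rose and 1 (1.39%) fell with AP3, and in GEF-H1-/- cells 2 (2.78%) rose and 0 fell, beside the shares of all genes given above. Their median change was 0.25 in WT cells and 0.11 in GEF-H1-/- cells. With the groups rescaled to a common sum it was 0.06 and 0.07, and that of all genes tested was -0.20 and -0.05. Rescaled to a common sum, 7 of the 12 were still called in WT cells, and Furin, Hgf, Nrg1, Rhbdf2 and Slc2a1 were not; between the treated genotypes Ndrg1 and Timp3 were then no longer called and Igfbp7 and Pdgfc were newly called, but Pdgfc passed the filter only in AP3-treated GEF-H1-/- cells, where it was highest (1.65 FPKM), and the interval of Igfbp7 as deposited, -0.40 to 2.36, included 0. Igfbp4 was newly called between the untreated genotypes, and Nrp1 in the difference of the changes.

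Among 23 other secreted growth factors 6 were tested and 1 rose in WT cells: Hgf, hepatocyte growth factor, went from 8.46 to 19.5 FPKM (1.11), and was at 15.7 and 21.6 FPKM in untreated and AP3-treated GEF-H1-/- cells. Grn, progranulin, had the highest level of that list, 253 FPKM in untreated WT and 236 in AP3-treated WT cells. Since Vegfa is a known target of hypoxia-inducible factor (HIF), 15 other HIF target genes were examined, of which 14 were tested, 2 rose in WT cells and 1 in GEF-H1-/- cells. Ndrg1 went from 16.1 to 71.0 FPKM in WT cells (2.07) and from 15.1 to 34.3 in GEF-H1-/- cells (1.14), and Slc2a1, the glucose transporter GLUT1, from 45.5 to 97.7 in WT cells (1.09) and from 45.3 to 53.1 in GEF-H1-/- cells (0.22). Ldha, with the highest level in untreated WT cells, was at 569 FPKM there and 529 in AP3-treated WT cells. The median over the 14 HIF targets tested was 0.17 in WT cells and -0.12 in GEF-H1-/- cells.

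**Figure D5:**
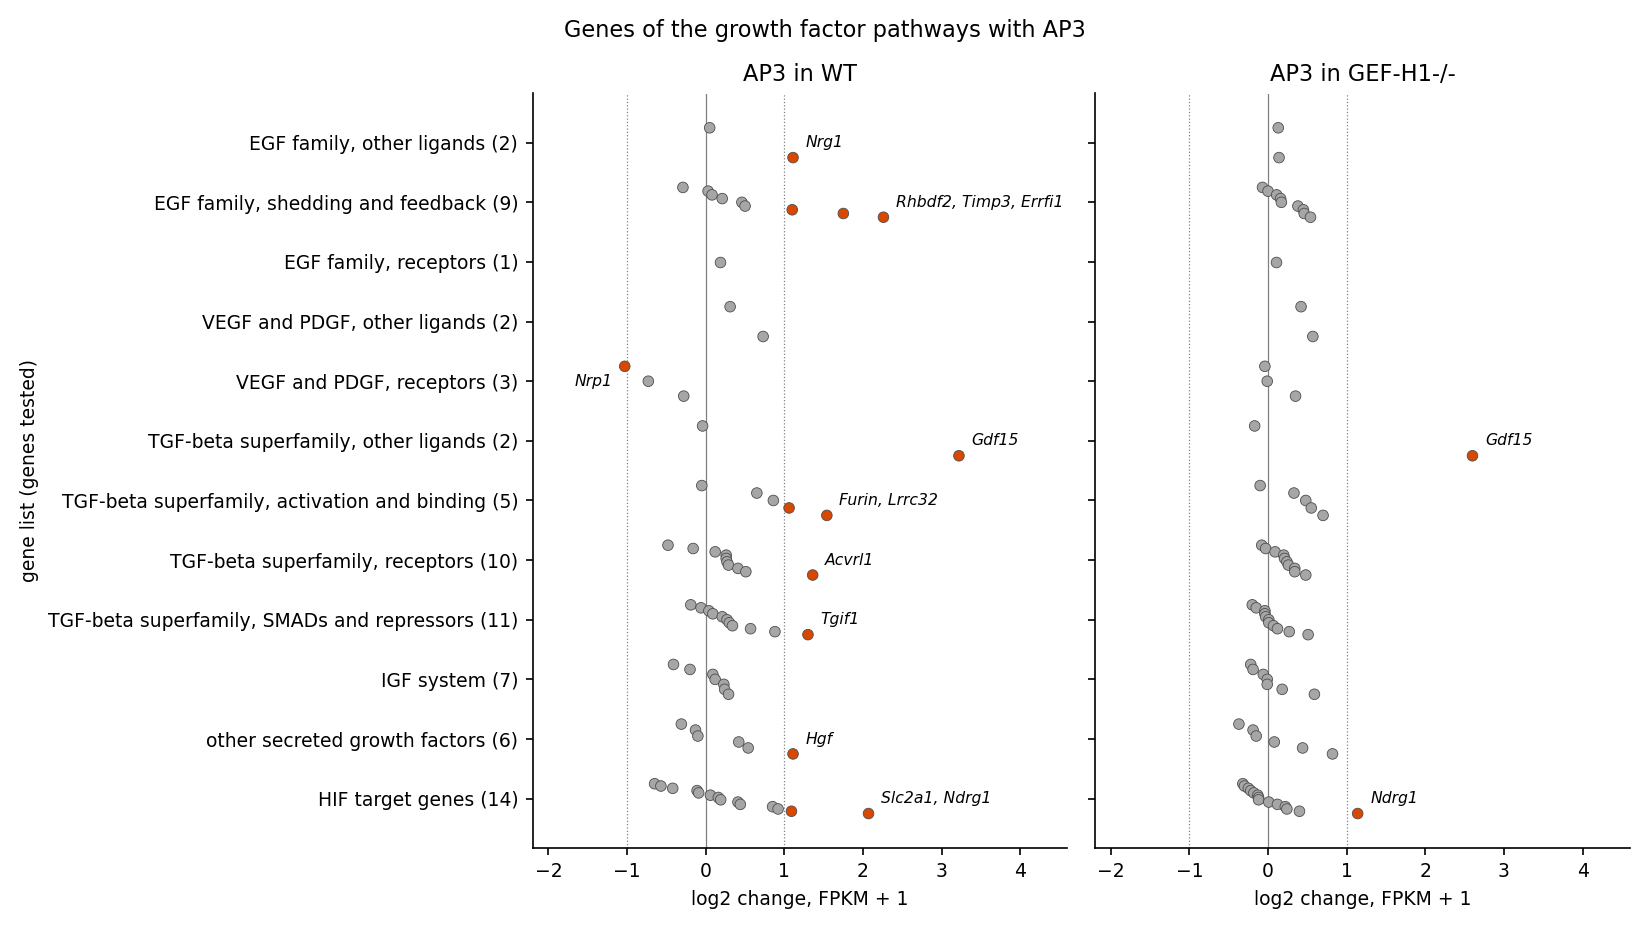
Log2 change of FPKM + 1 with AP3 in WT cells (left) and GEF-H1-/- cells (right) for each tested gene of the 12 pathway lists, with 1 point per gene, the number of genes tested in brackets and dotted lines at 1 and -1; genes past the lines are orange and named in order of value. In WT cells 12 genes lie to the right of the line and Nrp1 to the left, and in GEF-H1-/- cells Gdf15 and Ndrg1 lie to the right.

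The genes most like each called ligand over the 4 groups were sought among 8816 genes that reached 5 FPKM in 1 or more groups and were not small RNA genes, by the Euclidean distance between log2(FPKM + 1) values centred over the groups. For Hbegf they were Trem1 (distance 0.267), Cystm1 (0.309) and Il6 (0.324), and for Inhba Cxcl2 (0.268), Stk38l (0.359) and Gm13889 (0.443). Il6 was at 11.4 FPKM in untreated WT, 77.7 in AP3-treated WT, 12.9 in untreated GEF-H1-/- and 41.0 in AP3-treated GEF-H1-/- cells, and Cxcl2 at 3.68, 63.4, 5.36 and 17.0. For Vegfa the nearest were Pdlim7 (0.136), Gm6682 (0.225) and Chst11 (0.235), and for Pdgfb Ttc39c (0.188), Cdk18 (0.274) and Tuba1c (0.283). Tuba1c, an alpha-tubulin gene, was at 24.9 and 112 FPKM in untreated and AP3-treated WT cells and at 26.3 and 92.3 in GEF-H1-/- cells.

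RefSeq promoter windows on GRCm38.p6, from 250 bases before to 50 after a start, were found for 7 of the 10 ligands and not for Hbegf, Ereg and Pdgfb. The windows found were searched on both strands for AP-1 (TGANTCA), the cyclic AMP response element (TGACGTCA), the core of the hypoxia response element (ACGTG or GCGTG), the CArG box and the NF-kappaB site. The 250 bases before the start are shown for Inhba (chr13:16011601-16011850, plus strand) and Vegfa (chr17:46032378-46032627, minus strand), which were called higher in WT cells, and for Areg (chr5:91139349-91139598, plus strand), which stayed below 1 FPKM, with matches in capitals. No annotated GENCODE exon of the same gene overlaps these stretches.
Inhba: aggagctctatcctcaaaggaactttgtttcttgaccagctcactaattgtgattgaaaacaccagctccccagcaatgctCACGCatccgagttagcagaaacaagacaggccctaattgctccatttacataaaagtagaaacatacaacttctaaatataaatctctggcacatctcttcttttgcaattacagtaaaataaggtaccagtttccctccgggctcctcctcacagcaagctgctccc
Vegfa: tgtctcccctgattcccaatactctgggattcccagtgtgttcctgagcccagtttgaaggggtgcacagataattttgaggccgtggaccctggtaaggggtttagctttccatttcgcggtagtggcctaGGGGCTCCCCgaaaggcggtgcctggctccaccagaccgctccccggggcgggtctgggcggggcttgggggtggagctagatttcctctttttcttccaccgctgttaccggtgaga
Areg: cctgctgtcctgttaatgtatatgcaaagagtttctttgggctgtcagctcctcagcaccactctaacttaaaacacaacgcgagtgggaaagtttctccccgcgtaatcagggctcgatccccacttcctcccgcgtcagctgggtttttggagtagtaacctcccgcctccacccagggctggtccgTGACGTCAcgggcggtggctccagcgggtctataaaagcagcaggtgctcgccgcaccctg
The Inhba stretch holds 1 hypoxia response core, read on the opposite strand as CACGC, and the whole window holds 2. Over all 32851 promoters in the set 43.8% of whole windows and 38.6% of the stretches before the start hold such a core. The RefSeq start of Inhba lies 2624 bases before the locus of the deposited table, so the window may not be that of the transcripts measured. The Vegfa stretch holds 1 NF-kappaB site, present in 8.46% of all whole windows and 7.25% of the stretches, and that of Areg holds 1 cyclic AMP response element, present in 1.79% and 1.55%. A second RefSeq window of Vegfa, which overlaps annotated exons, holds 2 hypoxia response cores. Such cores are also in windows of Pdgfa, Tgfb1, Igf1 and Vegfb, and NF-kappaB sites in those of Pdgfa and Tgfb1, and an AP-1 match in that of Igf1, none of which was called with AP3. No AP-1 match or CArG box was in the windows of Inhba, Vegfa and Areg. Over all whole windows AP-1 letters occur in 7.81% and the CArG box in 1.63%. Such matches describe letters in these windows and carry no measurement of binding.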

How the data were processed

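RNA-seq of WT and GEF-H1-/- BMDCs was analysed from FPKM that the authors computed and deposited as 1 value per gene and group, with the bounds of a 95% interval. The submitters' processing notes name Cuffdiff 1.05 and mm10; the aligner behind the table is not given in the sources used here. Strand-specific libraries were made from polyadenylated RNA. The WT columns name no genotype and were assigned by elimination. Genes with a status of low data (106) or too many data (1) were left out, and at least 1 FPKM in at least 1 group was required (11397 genes). The error of a log2 change was derived from the widths of the deposited intervals, taking groups as independent. It does not replace the spread between the 2 libraries of a group, and limma, foreseen for separate libraries, was not run. The depth reached by each library is not in the files; the methods give a target only. The members and lists were chosen with earlier results of these data known. Named genes were Arhgef2, the members, each pathway list's called genes and its highest gene in untreated WT cells, and the 3 genes nearest to each called member; marker and other receptor genes named were chosen after their values were seen. Alternatives were other pseudocounts, filters, scalings and thresholds. Python 3.11.15, pandas 2.3.3, NumPy 2.4.6 and SciPy 1.17.1 were used. The computation was run on simulated data with planted changes well past the threshold and less noise than the deposited intervals imply. That run does not cover calls near the threshold.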

Additional observations from a re-analysis of the deposited data

Results flagged for a closer look

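In 11 of the 129 ligands, pathway genes and markers tested, the change with AP3 differed between the genotypes by more than 1 on the log2 scale and the interval of that difference did not include 0. Over all 11397 genes tested 1.25% met this rule with the larger value in WT cells and 0.483% in the other direction. The ligands and lists were chosen with earlier results of these data known, so these shares are no test. Among the ligands the genes that met the rule were Inhba (1.78), Hbegf (1.49) and Vegfa (1.13), with the larger change in WT cells. Among the pathway genes they were Errfi1 (1.71, interval 1.13 to 2.29), Timp3 (1.29, 0.72 to 1.86), Acvrl1 (1.17, 0.66 to 1.67), Ankrd37 (1.15, 0.39 to 1.91) and Tgif1 (1.03, 0.45 to 1.62). Of these, only Acvrl1 had deposited intervals apart between the untreated genotypes. It was higher there in GEF-H1-/- cells, by 0.65, and not called. Ankrd37, a HIF target, changed by 0.85 in WT cells and -0.30 in GEF-H1-/- cells, so that neither change alone was called. Rescaled to a common sum, Vegfa (0.94), Acvrl1 (0.98) and Tgif1 (0.84) were no longer past the threshold, and the pathway gene Nrp1, not called before that scaling, was newly past it in the other direction.

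Among the markers the difference was 1.63 for Hdc, which makes histamine (1.64 in WT cells and 0.01 in GEF-H1-/- cells). It was -1.21 for Mertk, a macrophage receptor (-1.86 and -0.65). For the platelet chemokine gene Ppbp it was 1.05 (1.30 and 0.25), and 0.86 with that scaling. Ppbp was at 18 and 46 FPKM in untreated and AP3-treated WT cells and at 47.1 and 56.2 in GEF-H1-/- cells. GEF-H1-/- cells were thus above WT cells by 1.34 without the drug and by 0.28 with it. The intervals come from pooled values, and none of these differences was tested against the spread between libraries.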

How the results depend on the processing

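Of 40 counts of called ligands under 8 alternatives, 37 were within 1.5 times the reported count. With a threshold of 0.58 the ligands called between untreated genotypes went from 0 to 1 (Pdgfa) and those between treated genotypes from 2 to 4, by Vegfa (-0.59, lower in GEF-H1-/- cells) and Igf1 (0.62, higher). With a pseudocount of 0.1 FPKM, Pdgfb (1.02) was added to the ligands called in the difference of the changes. With the groups rescaled to a common sum of FPKM without small RNA genes, 1 ligand was called between treated genotypes; AP3-treated WT cells had the highest sum, so this scaling lowers all their values. The 4 ligands called with AP3 in WT cells were called under each of the 8 alternatives, but several of these could not have changed that. Leaving out the filter or lowering the threshold cannot remove a call. A filter of 5 FPKM could not either, since all 4 were above it in AP3-treated WT cells. Scaling to a common median ratio used factors from 0.9929 to 1.001, so it could hardly move any count or value. Of 160 log2 changes of single ligands under other pseudocounts and scalings, 157 stayed within the interval of the reported value and 0 called values reversed; the other 3 were smaller changes of Hbegf, Vegfa and Pdgfb in WT cells with a pseudocount of 5 FPKM. No paired analysis was possible because the table holds 1 pooled value per group, although the labels of the libraries share replicate numbers. For the same reason leaving out a library could not be run. The fragment numbers reached are not in the files, and what depth allows for Areg and Ereg was not computed.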
